A study of Homo sapiens with 6 samples.

Results

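The subunits of voltage-gated ion channels and of their close relatives were taken from the gene table by symbol, as every gene whose name begins with KCN, CACN, SCN and a digit, or HCN and a digit. Names with a hyphen or ending in P and a digit were left out. The rule took 138 of 62696 genes: 92 of potassium channels, 26 of calcium channels, 13 of sodium channels, 4 HCN genes and 3 others. The label is narrower than the set, because the inward rectifiers (KCNJ), the K2P channels (KCNK) and the small-conductance calcium-activated channels (KCNN) carry no working voltage sensor, and 2 of the 3 others, KCNQ1OT1 and KCNQ1DN, are noncoding RNAs. The last of these 3, SCN7A, was counted neither among the pore-forming nor among the auxiliary subunits. The rule also dropped the Kv4 partners KCNIP1, KCNIP2, KCNIP3 and KCNIP4, whose names end in P and a digit.

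The cells were DMS53, an established human line of neuroendocrine small cell lung cancer, transduced with lentivirus and selected with puromycin. Control cells carried the empty vector and OC2-OE cells a vector for constitutive, tagged expression of the transcription factor ONECUT2 (OC2). Poly(A) RNA was sequenced from 3 control and 3 OC2-OE libraries. The study calls them independent experiments but the labels name no separate cultures, so p-values measure the spread between these libraries.

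Voltage-gated channels open when the membrane potential changes: sodium channels drive the upstroke of the action potential, calcium channels couple it to calcium entry and secretion, and potassium channels bring the membrane back to rest. Each is built from a pore-forming subunit and auxiliary subunits that set its gating and traffic to the membrane, while K2P and inward rectifier channels hold the resting potential. Neuroendocrine lung tumour cells are electrically excitable and secrete hormones and peptides.

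The libraries held 16533284 to 19099337 counts. ONECUT2 itself, whose counts pool the endogenous gene and the vector, was at 24.2 to 24.9 CPM (counts scaled to library size) in control and 3860 to 3990 CPM in OC2-OE libraries. All 5 neuroendocrine markers examined (SYP, CHGA, INSM1, NCAM1 and SCG2) were detected, with a summed level of 1690 to 1710 CPM in control and 2780 to 2810 CPM in OC2-OE. SCG2 and CHGA rose (log2 fold changes of 1.5 and 1.06), while SYP, INSM1 and NCAM1 fell (log2 fold change -0.44, -1.93 and -2.0). The Schwann and glial markers summed to 7.62 to 9.32 CPM in control and 1.73 to 2.63 CPM in OC2-OE. Of the fibroblast markers COL1A1 went from 21.5 ± 1.69 to 27.8 ± 1.52 CPM, and COL3A1 and DCN had 8 and 6 counts in all. The epithelial markers EPCAM, KRT8 and KRT18 summed to 3520 to 3610 CPM in control and 2750 to 2810 CPM in OC2-OE, EPCAM rising (log2 fold change of 0.34) and KRT8 and KRT18 falling (log2 fold changes of -0.52 and -0.72). The 3 endothelial markers summed to 2.99 to 3.96 and 2.36 to 3.35 CPM. Of these CDH5 fell from 1.01 ± 0.244 to 0.0549 ± 0.00276 CPM, PECAM1 was not called, and VWF, not tested, had 0, 1 and 0 counts against 6, 5 and 6. The T cell marker CD3E and the neuronal marker RBFOX3 had no count in any library. The part of these marker differences in the channel results was not tested. In bulk RNA, fewer cells of a kind and less RNA per cell cannot be told apart.

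Channel genes fell more often than they rose. Of the 138 members, 83 passed the filter on low counts and 58 of these (69.9%) changed between control and OC2-OE at an adjusted p under 0.001 (edgeR's quasi-likelihood test, Benjamini-Hochberg over 17307 genes), where 56.5% of all genes tested did. Of the 58, 40 were lower in OC2-OE (48.2% of those tested) and 18 higher (21.7%), against 28.7% and 27.8% of all genes. A log2 fold change of at least 1 in either direction was found for 36 members (43.4%, against 17.3% of all genes). Among these 27 fell, where 9.04% of all genes fell as far, and 9 rose, where 8.29% did. The members' median log2 fold change was -0.35, ranging from -5.77 to 3.83, and that of all genes tested was 0.01. The control and OC2-OE libraries did not overlap in CPM for 67 of the 83 (80.7%, against 73.2% of all genes).

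**Figure D1:**
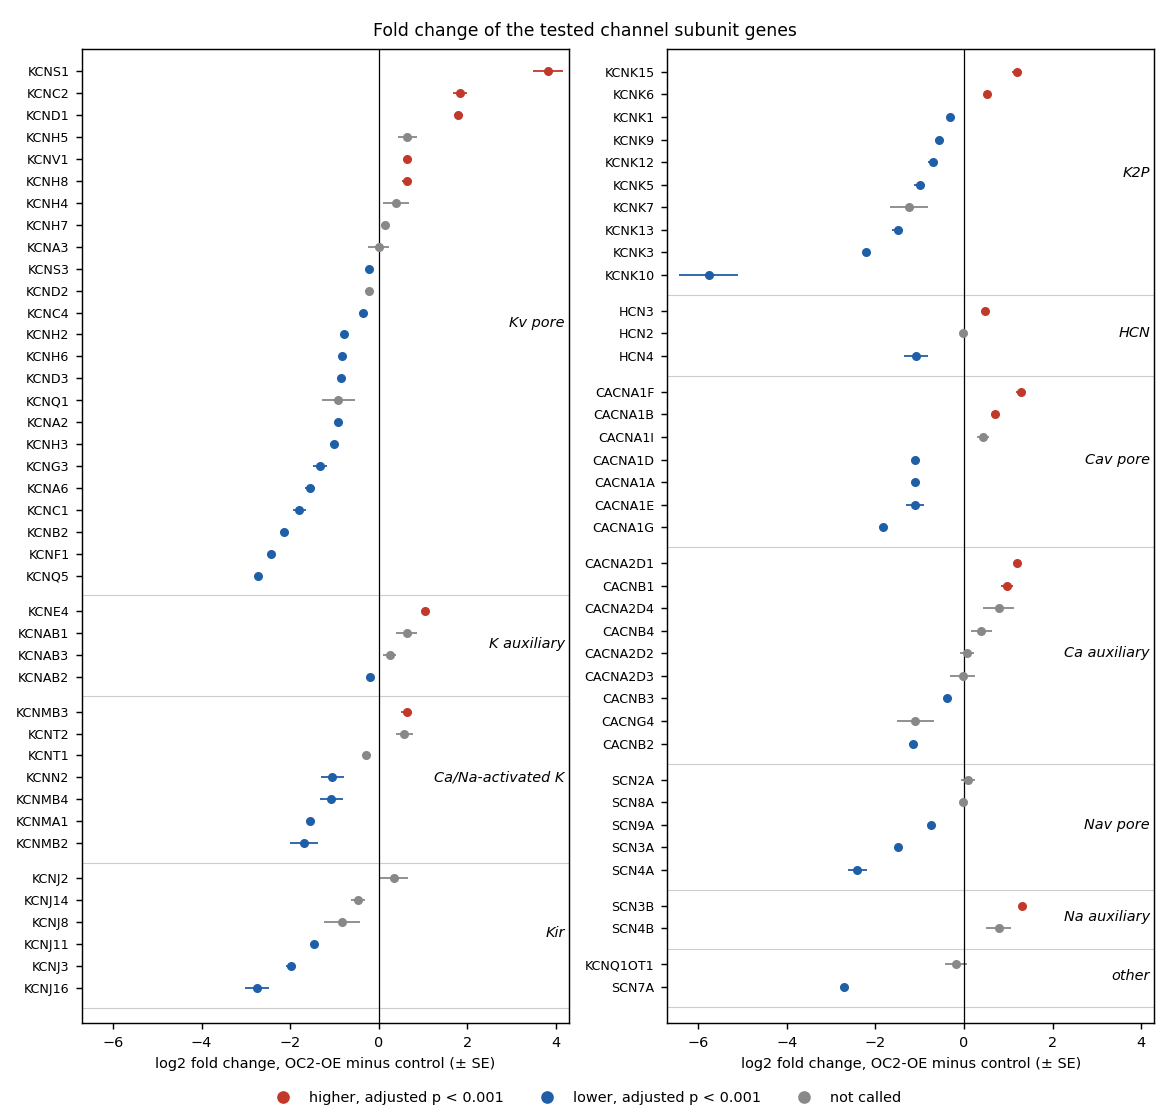
Log2 fold change (OC2-OE over control, bars for the standard error) of 79 of the 83 tested members, one point each, grouped by class and coloured by call. Of the 54 called members shown 39 lie to the left of zero and 15 to the right.

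The median change was below 0 for pore-forming and above 0 for auxiliary subunits, a difference that was not tested. Of 62 tested pore-forming subunits 33 fell (53.2%, against 28.7% of all genes) and 13 rose (21%, against 27.8%). Their median log2 fold change was -0.73. Of 19 tested auxiliary subunits 6 fell (31.6%) and 5 rose (26.3%), both near the shares of all genes, with a median of 0.25. To add levels across genes, CPM was divided by exon length in kb (RPKM). Exon length counts every annotated exon of a gene, so levels and ranks per length depend on the annotation. The summed RPKM of all members was 328 ± 3.90 (SD, n = 3) in control and 232 ± 1.46 in OC2-OE. Sodium channel pores went from 75.2 ± 1.68 to 29.0 ± 0.246 RPKM, a ratio of 0.386, and inward rectifiers from 18.9 ± 0.324 to 7.10 ± 0.300, a ratio of 0.376. Potassium channel auxiliary subunits moved the other way, from 27.2 ± 0.434 to 50.8 ± 0.915 RPKM. These sums rest on a few abundant genes and are given as a description, with no test.

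**Figure D2:**
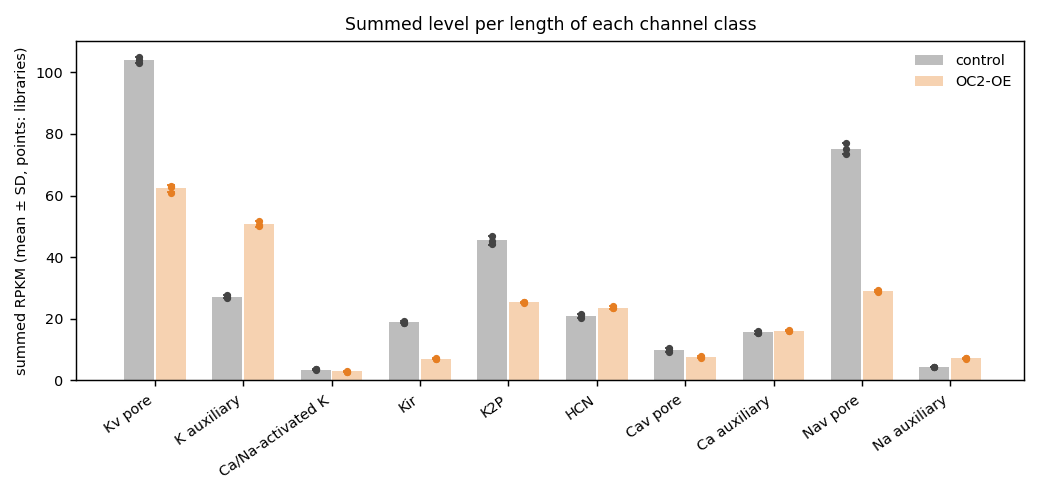
Summed RPKM (level per exon length) of each channel class in control and OC2-OE, as the mean of 3 libraries with the SD as error bar and each library as a point. Sodium channel pores drop from 75.2 to 29.0 and potassium channel auxiliary subunits climb from 27.2 to 50.8.

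The 250 bases before the start of 4 genes are shown because these genes changed most in each direction among called members with at least 100 counts, a start within 1000 bases of the annotated 5′ end and a window free of exons. KCNF1 and KCNK3 fell 5.43-fold and 4.65-fold, and KCNC2 and KCND1 rose 3.56-fold and 3.47-fold. The sequences are RefSeq's (GRCh38.p14), read 5′ to 3′ on the gene's strand, and capitals mark matches on either strand to 6 motifs: ATCGAT and ATTGAT, core sequences bound by ONECUT factors; CAGCTG and CAGATG, E-boxes bound by neurogenic basic helix-loop-helix factors; and TTCAGCACC and GGACAGC, the left and right parts of the site of REST, a repressor of neuronal genes. No motif lies within another.
KCNF1 (chr2:10911684-10911933, plus strand): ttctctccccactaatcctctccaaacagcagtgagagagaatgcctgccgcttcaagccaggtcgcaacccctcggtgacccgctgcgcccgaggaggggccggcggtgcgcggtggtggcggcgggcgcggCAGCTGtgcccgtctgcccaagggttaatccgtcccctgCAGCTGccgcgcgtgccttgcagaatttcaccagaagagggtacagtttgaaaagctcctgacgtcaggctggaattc
KCNK3 (chr2:26692472-26692721, plus strand): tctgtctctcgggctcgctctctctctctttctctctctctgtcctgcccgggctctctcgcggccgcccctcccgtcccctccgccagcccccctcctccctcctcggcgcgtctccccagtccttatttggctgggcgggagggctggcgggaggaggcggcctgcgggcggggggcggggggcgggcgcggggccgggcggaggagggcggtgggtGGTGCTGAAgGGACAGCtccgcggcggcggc
KCNC2 (chr12:75209840-75210089, minus strand): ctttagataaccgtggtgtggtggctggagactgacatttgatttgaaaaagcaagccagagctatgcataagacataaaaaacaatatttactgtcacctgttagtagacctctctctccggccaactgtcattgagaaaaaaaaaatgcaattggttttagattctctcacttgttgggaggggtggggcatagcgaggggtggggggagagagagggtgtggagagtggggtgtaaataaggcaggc
KCND1 (chrX:48971845-48972094, minus strand): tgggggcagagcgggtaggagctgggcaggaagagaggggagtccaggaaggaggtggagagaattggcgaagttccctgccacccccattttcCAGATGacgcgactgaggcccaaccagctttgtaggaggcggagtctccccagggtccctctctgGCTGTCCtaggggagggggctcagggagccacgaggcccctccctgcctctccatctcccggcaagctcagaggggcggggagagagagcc
The KCNF1 window holds 2 CAGCTG E-boxes. In the KCNK3 window the 2 capital stretches are the REST parts, TTCAGCACC being read on the opposite strand, and 76.4% of the bases are G or C. The KCND1 window holds CAGATG and, on the opposite strand, GGACAGC. The KCNC2 window holds none of the 6 motifs and is 46.0% G or C.

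RefSeq windows could be matched for 98 of the 138 members and 59 of the 83 tested. ATCGAT was in 0 of these 59 and in 0.655% of all 35116 windows, and ATTGAT in 1, that of SCN8A, against 5.58% of all. CAGCTG was in 9 (15.3%, against 14% of all), 1 risen, 5 fallen and 3 not called, and CAGATG in 6 (10.2%, against 12.2%), 3 risen and 3 fallen. TTCAGCACC was in 2, KCNH6 and KCNK3, both of which fell (3.39%, against 0.288% of all). GGACAGC was in 5, those of KCND1, KCNH5, KCNH6, KCNK10 and KCNK3 (8.47%, against 4.76%), 1 risen, 3 fallen and 1 not called. Median GC content was 70.0% for the 10 risen members with a window, 65.4% for the 30 that fell and 66.0% for the 19 not called, against 58.0% over all windows. A match describes the letters only.

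Of 27 tested pore subunits of voltage-gated potassium (Kv) channels, 13 fell and 8 rose (77.8% called, against 56.5% of all genes). The furthest falls were those of KCNQ5, KCNF1 and KCNB2. Gene coordinates are on GRCh38 as the files give them. KCNQ5 (chr6:72621792-73198853), a subunit of the M-current that restrains repetitive firing, was at 70.5, 70.6 and 67.3 CPM in control and 8.61, 12.4 and 10.5 CPM in OC2-OE. It fell 6.64-fold (log2 fold change -2.73 ± 0.066 SE, adjusted p = 3.43e-61), with every OC2-OE library far under every control library. KCNF1 (chr2:10911934-10914225), an electrically silent subunit that works only in complex with other Kv subunits, was at 45.2, 48.0 and 44.3 CPM in control and 7.98, 8.31 and 9.06 CPM in OC2-OE (log2 fold change -2.44 ± 0.073, adjusted p = 8.29e-60). KCNB2, which forms delayed rectifier pores, was at 19.1, 18.9 and 19.1 CPM against 4.28, 4.33 and 4.34 CPM (log2 fold change -2.14 ± 0.10, adjusted p = 3.06e-39).

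Among the Shaker-type and the silent subunits, KCNA6 was at 12.7 CPM in each control library and 4.59, 3.87 and 4.50 CPM in OC2-OE (log2 fold change -1.55 ± 0.12, adjusted p = 3.56e-24). KCNA2, an axonal Kv1 subunit, fell from 41.1 ± 0.274 to 21.7 ± 1.46 CPM, while KCNA3, known from T lymphocytes, was at 1.94 ± 0.287 and 1.93 ± 0.406 CPM and was not called. The silent subunit KCNG3 was at 5.73, 6.93 and 7.13 CPM against 2.82, 3.0 and 2.03 CPM (log2 fold change -1.33 ± 0.16, adjusted p = 6.92e-13). Silent subunits did not move as a block. KCNS1 (chr20:45091214-45101127) had 4, 3 and 4 counts in control and 62, 50 and 59 in OC2-OE, from 0.213 ± 0.0334 to 3.12 ± 0.203 CPM, the largest rise among the tested members (log2 fold change 3.83 ± 0.34, adjusted p = 1.28e-19). KCNV1 also rose, from 18.3 ± 0.481 to 28.6 ± 0.976 CPM (log2 fold change 0.64). KCNS3, at 40.8 ± 1.42 and 35.4 ± 0.630 CPM, fell by 0.21 on the log2 scale (adjusted p = 0.000411), a call kept without control replicate 2 and lost without any other single library (adjusted p of 0.00113 to 0.00469).

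The ether-a-go-go family gave the Kv pores their most abundant gene. KCNH2 (chr7:150944961-150978321), the hERG channel that shapes repolarisation in heart and in many tumour lines, was at 157, 163 and 163 CPM in control and 88.4, 95.2 and 98.1 CPM in OC2-OE (log2 fold change -0.78 ± 0.034, adjusted p = 5.93e-43). Per length it was the highest Kv pore in both groups, at 22.3 and 13 RPKM. KCNH6 fell from 46.1 ± 0.456 to 26.0 ± 1.24 CPM (log2 fold change -0.82). KCNH3 was at 15.2, 17.6 and 15.4 CPM against 8.61, 7.91 and 7.41 CPM (log2 fold change -1.01 ± 0.096, adjusted p = 7.73e-18). Family members of low level did otherwise: KCNH8 rose (log2 fold change 0.64, adjusted p = 3.98e-07), and KCNH4, KCNH5 and KCNH7, with log2 fold changes of 0.39, 0.65 and 0.15, were not called. Control replicate 1 held 35 of the 58 control counts of KCNH4, whose log2 fold change was 1.06 without it (adjusted p = 0.00699).

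**Figure D3:**
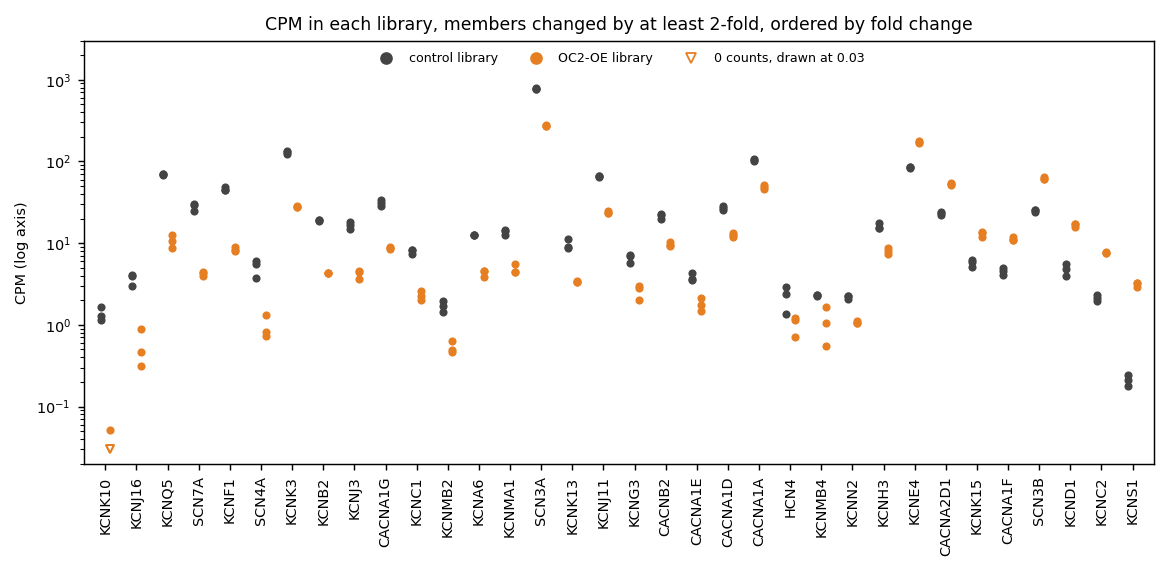
CPM (log axis) in each library of 34 of the 36 members with an adjusted p under 0.001 and a log2 fold change of at least 1 in either direction, with control and OC2-OE libraries as points and open triangles for libraries with 0 counts. The groups are apart for every one of these genes, which the choice by adjusted p and fold favours.

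In several subfamilies one paralog fell while another rose. Among KCNC genes, whose channels allow fast spiking, KCNC1 was at 8.19, 8.31 and 7.44 CPM in control and 2.61, 2.02 and 2.25 CPM in OC2-OE (log2 fold change -1.79 ± 0.15, adjusted p = 1.29e-20). KCNC2 (chr12:75040077-75209839) was at 1.98, 2.15 and 2.34 CPM against 7.57, 7.62 and 7.85 CPM (log2 fold change 1.83 ± 0.16, adjusted p = 1.48e-20). For both genes the control and OC2-OE libraries were apart. KCNC4 fell by 0.35 on the log2 scale, a call lost without control replicate 1 or 3 or OC2-OE replicate 1 or 2 (adjusted p = 0.00136, 0.00181, 0.0043 and 0.00167). Per length, KCNC1 went from 20.5% ± 1.58 to 3.77% ± 0.551 of the summed KCNC level and KCNC2 from 12.4% ± 0.788 to 28.2% ± 0.231.

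The KCND genes encode A-type channels, which delay firing. KCND1 (chrX:48961378-48971844) was at 4.01, 4.84 and 5.53 CPM in control and 17, 15.7 and 17 CPM in OC2-OE (log2 fold change 1.80 ± 0.11, adjusted p = 1.71e-31). KCND3 fell from 26.0 ± 0.808 to 14.4 ± 0.761 CPM (log2 fold change -0.86, adjusted p = 2.66e-20), and KCND2, at 17.5 ± 2.51 and 15.1 ± 1.08 CPM, was not called (adjusted p = 0.0177). The order within the subfamily changed with them. Per length KCND2 came first in all 3 control libraries with 57.3% ± 3.20 of the summed level. KCND1 came first per length in all 3 OC2-OE libraries with 45.8% ± 1.59, up from 15.7% ± 2.24. By CPM KCND3 was the highest in control and KCND1 in OC2-OE. The exon length of KCND3 was 19393 bases, against 6054 for KCND2 and 6082 for KCND1. KCNQ5 kept first place at 94.4% ± 0.849 and 66.3% ± 5.19 of the summed KCNQ level. KCNQ1, at 0.999 ± 0.155 and 0.528 ± 0.404 CPM, was not called, with a log2 fold change of -0.91 that was -1.71 without OC2-OE replicate 3.

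**Figure D4:**
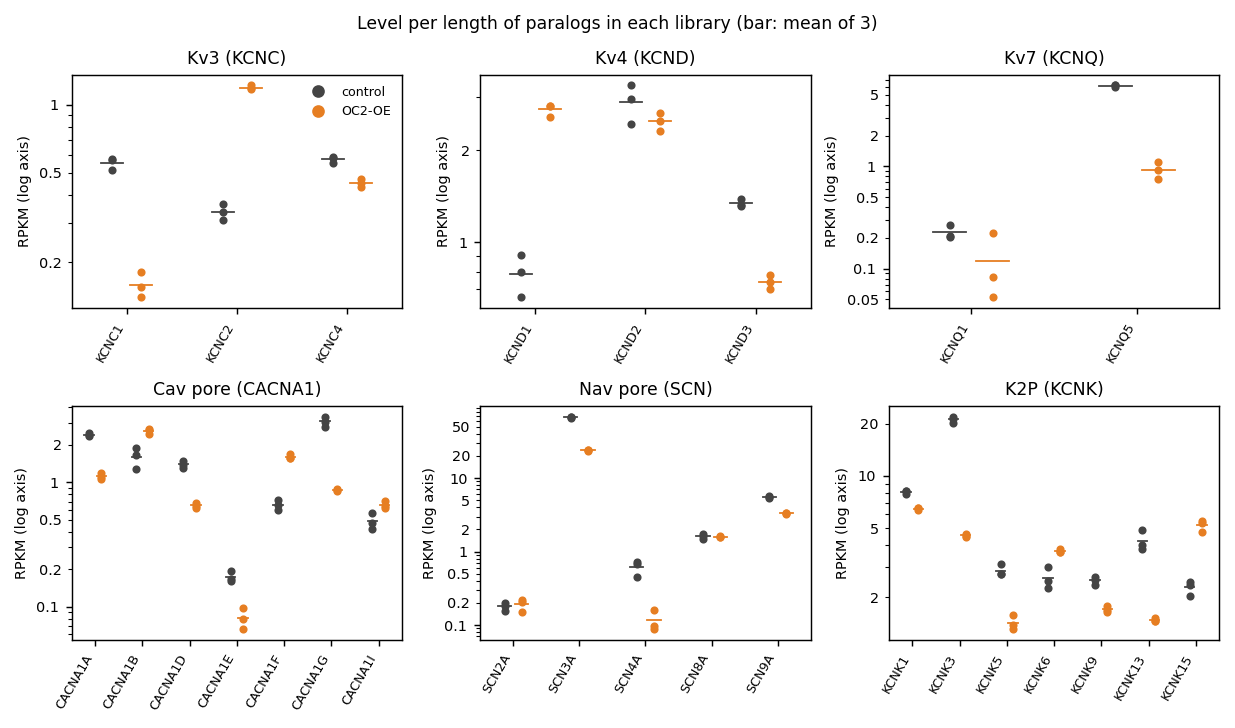
RPKM (log axis) of paralogs of 6 pore families in each library, with bars for the mean of 3. Per length KCND1 passes KCND2 and CACNA1B passes CACNA1G between control and OC2-OE, and KCNK1 and KCNK15 pass KCNK3. By CPM KCNK3 stays above KCNK1 and KCNK15, and CACNA1A is the highest calcium channel pore in both groups.

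Of 4 tested auxiliary subunits of potassium channels, 1 rose and 1 fell (50% called, against 56.5% of all genes). KCNE4 (chr2:223052190-223198399), a single-pass subunit that inhibits several Kv channels, was at 84.6, 82.5 and 85.7 CPM in control and 177, 171 and 170 CPM in OC2-OE (log2 fold change 1.04 ± 0.034, adjusted p = 2.9e-56). At 46.1 ± 0.951 RPKM it was the highest of all members in OC2-OE, and the class sum rose with it. KCNAB2, a cytoplasmic beta subunit, went from 54.4 ± 1.76 to 47.6 ± 1.03 CPM (log2 fold change -0.19, adjusted p = 0.000266). That call was lost without control replicate 3 or OC2-OE replicate 2 or 3 (adjusted p = 0.00378, 0.0035 and 0.00251). KCNAB1 and KCNAB3, with log2 fold changes of 0.63 and 0.25, were not called.

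Channels opened by intracellular calcium or sodium were low throughout, and 4 of 7 tested fell (57.1%, against 28.7% of all genes). KCNMA1, the pore of the large-conductance BK channel, was at 12.7, 14 and 14.6 CPM in control and 4.38, 5.48 and 4.39 CPM in OC2-OE (log2 fold change -1.54 ± 0.11, adjusted p = 8.05e-25). Its beta subunits, which set calcium sensitivity and inactivation, split. KCNMB2 had 37, 24 and 28 counts against 12, 8 and 9 (log2 fold change -1.69 ± 0.32, adjusted p = 1.82e-06). Because 32.1% of its exon bases overlap another gene on the same strand, where reads go to neither gene, its level is uncertain. KCNMB4 was at 2.30, 2.33 and 2.28 CPM against 1.67, 1.04 and 0.549 CPM (log2 fold change -1.07 ± 0.26, adjusted p = 0.000167). KCNMB3 rose from 5.51, 4.36 and 4.98 CPM to 7.04, 7.68 and 8.45 CPM (log2 fold change 0.63, adjusted p = 6.7e-06). KCNN2, an SK channel of the afterhyperpolarisation, was at 2.09, 2.27 and 2.28 CPM against 1.04, 1.10 and 1.04 CPM (log2 fold change -1.05 ± 0.26, adjusted p = 0.000154). The KCNMB4 call was lost without control replicate 2 or OC2-OE replicate 2 or 3 (adjusted p = 0.00119, 0.00113 and 0.0142), and the KCNN2 call without control replicate 2 or OC2-OE replicate 1 or 3 (adjusted p = 0.00102, 0.00124 and 0.00132). The sodium-activated KCNT1, at 11, 9.74 and 13.7 CPM against 10.5, 8.54 and 9.11 CPM, had the highest level of the class per length in control and was not called. By CPM KCNMA1 was the highest of the class in control, its exon length being 39437 bases against 15592 for KCNT1. KCNT2 (log2 fold change 0.58, adjusted p = 0.00463) came under 0.001 only without OC2-OE replicate 1 (log2 fold change 0.84, adjusted p = 6.65e-05).

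Of 6 tested inward rectifiers 3 were called (50%, against 56.5% of all genes). All 3 fell, 50% of those tested, where 28.7% of all genes tested fell. KCNJ11 (chr11:17365172-17389331), the pore of the ATP-sensitive channel that couples metabolism to secretion, was at 64.5, 65.7 and 67.2 CPM in control and 23.3, 23.5 and 24.7 CPM in OC2-OE (log2 fold change -1.46 ± 0.053, adjusted p = 2.9e-51). ABCC8, which lies beside KCNJ11 and encodes its sulfonylurea receptor partner, fell from 19.5 ± 1.61 to 6.76 ± 0.423 CPM (log2 fold change -1.53, adjusted p = 2.19e-30). KCNJ3, a G protein-gated channel, was at 16.5, 14.8 and 18.2 CPM against 3.65, 4.39 and 4.50 CPM (log2 fold change -1.98 ± 0.11, adjusted p = 9.29e-34). KCNJ16, a subunit known from kidney and glia, was at 4.01, 4.12 and 2.95 CPM against 0.313, 0.462 and 0.878 CPM (log2 fold change -2.74 ± 0.27, adjusted p = 4.85e-17). KCNJ11 held 70.4% ± 0.715 of the summed KCNJ level in control and 67.8% ± 0.873 in OC2-OE. KCNJ2, KCNJ8 and KCNJ14 were not called.

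The K2P channels carry background potassium current. Of 10 tested, 7 fell and 2 rose (90% called, against 56.5% of all genes). KCNK3 (chr2:26692722-26733420), the acid-sensitive TASK channel, was at 125, 132 and 136 CPM in control and 27.7, 28.6 and 28.0 CPM in OC2-OE (log2 fold change -2.22 ± 0.045, adjusted p = 3.46e-78). KCNK10, a lipid- and stretch-sensitive channel, had 31, 19 and 21 counts in control and 1, 0 and 0 in OC2-OE, a ratio of CPM of 0.0133 (95% counting interval 0.000332 to 0.0766). Its fitted log2 fold change of -5.77 depends on the prior count and was -7.58 without OC2-OE replicate 1, the library with the 1 count. KCNK13 was at 8.67, 9.08 and 11.1 CPM against 3.34, 3.35 and 3.46 CPM (log2 fold change -1.50 ± 0.13, adjusted p = 1.94e-19). KCNK5, an alkaline-activated channel, fell from 10.7 ± 0.933 to 5.37 ± 0.519 CPM (log2 fold change -1.0), KCNK12 from 10.6 ± 0.718 to 6.50 ± 1.29 CPM and KCNK9, the other acid-sensitive channel, from 16.9 ± 0.882 to 11.5 ± 0.438 CPM. KCNK15, a TASK relative, rose from 5.14, 5.92 and 6.15 CPM to 13.4, 12.0 and 13.8 CPM (log2 fold change 1.19 ± 0.11, adjusted p = 8.92e-19), and KCNK6 from 15.9 ± 2.23 to 22.8 ± 0.511 CPM. Per length KCNK3 was first in all control libraries with 46.5% ± 0.738 of the summed level and had 17.9% ± 0.327 in OC2-OE. There KCNK1 was first per length with 25.6% ± 0.268, although KCNK1 itself fell from 28.9, 28.8 and 27.7 CPM to 22.4, 23.1 and 23.1 CPM (log2 fold change -0.32, adjusted p = 5.91e-06). By CPM KCNK3 stayed first in OC2-OE. KCNK7, at 0.788 ± 0.117 and 0.330 ± 0.147 CPM, was not called (adjusted p = 0.00685).

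The HCN channels carry the pacemaker current that opens on hyperpolarisation. HCN2, first of the class per length in both groups, was at 44.4, 44.9 and 46.0 CPM in control and 43.2, 44.1 and 45.9 CPM in OC2-OE, groups that overlapped (log2 fold change -0.02 ± 0.051, adjusted p = 0.703). HCN3 rose from 34.1, 28.9 and 32.3 CPM to 45.0, 43.7 and 44.6 CPM (log2 fold change 0.48 ± 0.056, adjusted p = 1.22e-13). HCN4, the sinoatrial form, was at 1.34, 2.39 and 2.89 CPM against 1.15, 1.21 and 0.714 CPM (log2 fold change -1.08 ± 0.27, adjusted p = 0.000233). This call was lost without control replicate 2 or 3 or OC2-OE replicate 3 (adjusted p = 0.00308, 0.0123 and 0.00864).

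Calcium channel pores split by gene. Of 7 tested, 4 fell and 2 rose (85.7% called, against 56.5% of all genes). CACNA1A, the P/Q-type pore of presynaptic release, was at 107, 102 and 104 CPM in control and 46.1, 48.1 and 51.5 CPM in OC2-OE (log2 fold change -1.10 ± 0.042, adjusted p = 2.18e-49). Its N-type relative CACNA1B rose from 16.4, 12.7 and 18.6 CPM to 24.2, 26.7 and 26.3 CPM (log2 fold change 0.69 ± 0.080, adjusted p = 4.59e-12). CACNA1G, a low-voltage-activated T-type pore, was at 34, 28.3 and 30.9 CPM against 8.56, 8.77 and 8.95 CPM (log2 fold change -1.83 ± 0.081, adjusted p = 3.56e-43). The L-type pores went opposite ways. CACNA1D, which serves endocrine and pacemaker cells, was at 28.6, 26.7 and 25.1 CPM against 12.5, 13.2 and 11.9 CPM (log2 fold change -1.10 ± 0.076, adjusted p = 1.09e-26). CACNA1F, known from photoreceptors, was at 4.98, 4.54 and 4.12 CPM against 10.9, 11.8 and 10.8 CPM (log2 fold change 1.29 ± 0.12, adjusted p = 2.12e-18). The R-type CACNA1E, at 4.28, 3.65 and 3.57 CPM against 1.46, 2.14 and 1.76 CPM, fell by 1.11 on the log2 scale. Per length CACNA1G was first in the 3 control libraries with 31.3% ± 0.765 of the summed level. CACNA1B was first per length in the 3 OC2-OE libraries with 34.1% ± 0.552. By CPM CACNA1A was the highest in both groups. Its exon length was 43150 bases, against 10062 for CACNA1G and 9897 for CACNA1B. The T-type CACNA1I (log2 fold change 0.43, adjusted p = 0.00218) came under 0.001 only without control replicate 1 (log2 fold change 0.57, adjusted p = 0.000415) or with scaling by library size (log2 fold change 0.48, adjusted p = 0.000668).

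Of 9 tested auxiliary subunits of calcium channels 2 rose, 2 fell and 5 were not called (44.4% called, against 56.5% of all genes). CACNA2D1, the alpha2delta subunit that carries channels to the membrane and binds gabapentin, rose from 23.3, 22.2 and 23.8 CPM to 52.2, 54.0 and 51.9 CPM (log2 fold change 1.19 ± 0.056, adjusted p = 2.75e-40). The beta subunits bind the pore from the cytoplasm. CACNB2 was at 22.6, 19.8 and 22.3 CPM against 9.5, 10.4 and 9.22 CPM (log2 fold change -1.15 ± 0.086, adjusted p = 1.28e-24), and CACNB3, the most abundant, at 65.0, 66.4 and 69.1 CPM against 51.0, 50.4 and 52.6 CPM (log2 fold change -0.38 ± 0.045, adjusted p = 4.39e-13). CACNB1 rose from 3.93 ± 0.0596 to 7.68 ± 0.958 CPM (log2 fold change 0.97, adjusted p = 4.04e-10). The summed level of these subunits was 15.6 ± 0.459 RPKM in control and 16.1 ± 0.230 in OC2-OE, and the ranges overlapped.

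The sodium channel pores were dominated by SCN3A (chr2:165087526-165204050), a brain-type pore most active before birth. It was at 795, 764 and 775 CPM in control and 273, 278 and 275 CPM in OC2-OE (log2 fold change -1.50 ± 0.023, adjusted p = 9.06e-92), and at 67.3 RPKM it was the highest of all members in control. In OC2-OE, at 23.8 RPKM, it came second to KCNE4. SCN9A, the pain-related pore of peripheral neurons, was at 77.7, 74.6 and 79.5 CPM against 45.0, 46.3 and 46.6 CPM (log2 fold change -0.75 ± 0.045, adjusted p = 8.36e-32). SCN4A, the skeletal muscle pore, was at 5.99, 3.71 and 5.53 CPM against 0.731, 0.808 and 1.32 CPM (log2 fold change -2.41 ± 0.22, adjusted p = 1.87e-18). SCN8A, at 30.8 ± 2.23 and 30.3 ± 0.490 CPM, and SCN2A, at 4.33 ± 0.588 and 4.60 ± 0.911 CPM, were not called (adjusted p = 0.674 and 0.625). SCN7A, an atypical relative that senses sodium, was at 28.9, 24.4 and 30.0 CPM against 4.28, 4.44 and 4.01 CPM (log2 fold change -2.71 ± 0.099, adjusted p = 5.39e-51). SCN3A, SCN2A, SCN1A, SCN9A and SCN7A are neighbours on chromosome 2, and of these SCN3A, SCN9A and SCN7A fell, SCN2A was not called and SCN1A, with 22 counts in all, was not tested. Of 5 tested sodium channel pores, a count that leaves out SCN7A, none was called higher, where 27.8% of all genes were.

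The sodium channel beta subunits are also adhesion molecules. SCN3B rose from 25.7, 23.8 and 25.3 CPM in control to 61.3, 63.7 and 60.1 CPM in OC2-OE (log2 fold change 1.30 ± 0.054, adjusted p = 7.03e-46), while SCN4B, at 1.00 ± 0.175 and 1.73 ± 0.268 CPM, was not called (adjusted p = 0.00976). Per length SCN3B held 57.2% of the summed beta subunit level in control and 86.4% in OC2-OE.

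The 55 members that were not tested had at most 58 counts over all 6 libraries, that of KCNN1, and together 311 counts in control and 305 in OC2-OE. The counts of single genes differed more than the sum: KCNK16 had 30 counts in control and 2 in OC2-OE and KCNG2 29 and 6, while KCNE3 had 3 and 23 and KCNJ10 1 and 19. These 4 were chosen after their values were seen and have no test. Among the members not tested are also the cardiac L-type pore CACNA1C (7 counts) and the M-current pore KCNQ3 (14 counts). No count at all was found for 14: CACNG2, CACNG3, CACNG6, CACNG7, CACNG8, KCNMB1, KCNJ13, KCNJ15, KCNJ18, KCNK4, KCNV2, KCNA5, KCNG1 and SCN10A. Of these, KCNK4 shares 61.9% and CACNG2 31.6% of its exon bases with another gene on the same strand, where reads go to neither gene. A count of 0 over the 3 libraries of a group allows up to 3 counts, 0.0581 CPM in control and 0.0548 CPM in OC2-OE, for counting error only. KCNQ1OT1, at 1.91 ± 0.339 and 1.65 ± 0.533 CPM, was tested and not called, and KCNQ1DN had 1 count. Over the genome, the 18 members that rose spanned a median of 27.2 kb, the 40 that fell 106 kb, the 25 not called 119 kb and the 55 not tested 28.9 kb.

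Partners of the channels that the symbol rule leaves out were examined as a list of 33 genes. Of 23 tested, 6 rose, 9 fell and 8 were not called (65.2% called, against 56.5% of all genes), with a median log2 fold change of -0.02. For A-type channels, KCNIP4 rose from 2.98 ± 0.646 to 7.18 ± 0.347 CPM and DPP10 from 33.9 ± 2.31 to 54.2 ± 1.95 CPM, while KCNIP3 fell from 17 ± 0.716 to 11.2 ± 0.421 CPM. LRRC55, an auxiliary protein of BK channels, fell from 1.24 ± 0.316 to 0.243 ± 0.151 CPM. The intracellular sodium channel modulators FGF13 and FGF14 fell by 0.85 and 0.97 on the log2 scale, and FGF11 and FGF12, with log2 fold changes of 0.18 and -0.02, were not called. Of the ankyrins that anchor channels at the membrane, ANK2 fell from 133 ± 3.03 to 73.8 ± 2.67 CPM and ANK3 rose from 9.16 ± 0.320 to 23.4 ± 2.11 CPM. NALF1, a subunit of the sodium leak channel complex, fell by 1.61 on the log2 scale, while NALF2, UNC79 and UNC80 of the same complex, with log2 fold changes of 0.09, -0.20 and 0.07, were not called, and its pore NALCN had 1 count over all libraries. PEX5L, which binds HCN channels, fell by 0.25. STAC, which binds L-type calcium channels, and CACHD1, a relative of the alpha2delta subunits, rose, with log2 fold changes of 2.34 and 0.35. The lysosomal channels TPCN1 and TPCN2 went from 323 ± 4.80 to 181 ± 4.02 and from 5.67 ± 0.252 to 9.62 ± 0.301 CPM.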

How the data were processed

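Poly(A) RNA was sequenced as stranded libraries. Per the submitters' processing notes, reads were checked with FastQC 0.11.8, aligned to GRCh38 with STAR 2.7.9a and counted with featureCounts 1.6.0. The deposited values are raw counts per gene, with no normalization by the authors. Symbols were matched to 62672 of 62696 gene IDs. Counts were normalised by TMM and tested with edgeR 4.0.16 (R 4.3.3; filterByExpr, robust quasi-likelihood fit, two-sided, Benjamini-Hochberg over 17307 genes), at the study's cut-off of an adjusted p under 0.001. Standard errors were obtained by dividing the size of each log2 fold change by the square root of F. CPM uses TMM-scaled library sizes and RPKM divides it by exon length in kb. Alternatives were DESeq2 1.42.0, limma 3.58.1 voom, other scalings and filters, a replicate block and leaving out each library. The scripts were tested on simulated data. Some genes are not reported here. For the others, values in every library are given for members with an adjusted p under 0.001 and a log2 fold change of at least 1 in either direction and for the highest of each class per length. The members, lists and promoter windows were chosen with earlier results of these data known. Depth limits genes with few counts, and intervals cover counting error only.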

Additional observations from a re-analysis of the deposited data

How the results depend on the processing

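The count of 58 members called was 51 to 59 over the alternative tests, scalings and filters: 51 by DESeq2 (61.4% of members tested and 48.4% of all genes), 56 by library size (67.5% and 56.4%), 57 by voom (68.7% and 54.8%), 59 of 124 when every gene with a count was tested (47.6% and 28.3%) and 53 of 72 when 10 counts were required per library (73.6% and 58.3%). Leaving out 1 library gave 53 to 57 (62.4 to 67.9% of members tested and 51 to 53.1% of all genes). At an adjusted p under 0.05, 70 were called (84.3% of members and 71.4% of all genes). With a log2 fold change of at least 1 in either direction, 36 members were called, 9 of them higher, and 2999 of all genes. The members' median log2 fold change ran from -0.37 to -0.29. Deviations of same-numbered control and OC2-OE libraries from their group means correlated at 0, 0.02 and 0.01. These values cannot decide whether the numbers pair libraries. Within a group the variance was only 1.32 to 2.06 times that of sampling, so counting error makes up much of the deviations. With the replicate block 58 members and 9642 genes were called, and the median was -0.35. Of the 58 called members 51 kept their call and direction in every alternative that tested them. Among the other 7 were KCNMB4, KCNN2, HCN4, KCNAB2, KCNS3 and KCNC4, each lost by DESeq2 and by at least 1 fit without a library. Scaling by library size also lost KCNAB2, KCNS3 and KCNC4 (adjusted p = 0.00752, 0.00751 and 0.0019), and voom lost HCN4 (adjusted p = 0.00198). The cause was not tested.

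Only members that were not called changed sign. KCNA3 was 0.05 by library size, 0.00 with no filter or with the replicate block, 0.01 with at least 10 counts, and -0.17 to 0.15 without 1 library. CACNA2D3 was 0.02 by library size, and -0.19 to 0.13 without 1 library. HCN2 was 0.03 by library size. SCN8A was 0.02 by library size and -0.08 to 0.02 without 1 library. Without 1 library SCN2A was -0.02 to 0.24, HCN2 -0.04 to 0.00, KCNJ2 -0.04 to 0.61 and KCNQ1OT1 -0.37 to 0.04.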
